A study of Mus musculus with 6 samples.

Results

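The interferon-stimulated genes described here are *Ifit1*, *Ifit3*, *Isg15*, *Irf7*, *Irf9*, *Stat2*, *Oasl2*, *Usp18* and *Bst2*, 9 genes of the 46078 in the deposited table. They were chosen by name as genes of the interferon response, and each of the 9 symbols matched 1 Ensembl identifier in GENCODE M21. The values come from RNA sequencing of dissected striatum from 3 wild-type (WT) mice and 3 transgenic (TG) mice that overexpress EGFP-tagged *Shank3*, the gene of a postsynaptic scaffold protein. All 6 mice were 12 weeks old, male by the study's methods and on the C57BL/6J background, with 1 library per mouse and no treatment named. The promoter that drives the transgene is not given in the sources used here. The table holds normalized read counts, that is, the reads of a gene over its library's size factor from DESeq2.

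Type I interferons bind a receptor whose kinases, JAK1 and TYK2, phosphorylate STAT proteins. STAT2 and IRF9 are subunits of the complex ISGF3, which binds interferon-stimulated response elements in promoters and switches on the interferon-stimulated genes. In brain tissue these genes are expressed at a low level without infection, and microglia and endothelial cells respond strongly to interferon. Since whole striatum was sequenced, fewer cells of a type and less RNA per cell cannot be told apart in any of the values below.

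The promoters of several members share a sequence. The members were chosen by name and not by sequence. Since ISGF3 switches on interferon-stimulated genes through response elements, a high share of them was likely from that choice. RefSeq windows from 250 bases before to 50 bases after the transcription start (GRCm38.p6) were at hand for 8 of the 9 members, *Usp18* being the other. The core of the response element was searched as GAAA, any 2 bases and GAAA, or on the opposite strand as TTTC, any 2 bases and TTTC. It was found in 5 of the 8 members (62.5%), in 50 of 116 other interferon pathway genes with a window (43.1%) and in 1079 of all 27025 genes with a window (3.99%). All matches in members lay before the start. They are shown because their letters match the core of the element, each with 20 bases on either side, 5′ to 3′ on the gene's strand, with the core matches in capitals.
*Isg15*, chr4:156200855-156200916, minus strand: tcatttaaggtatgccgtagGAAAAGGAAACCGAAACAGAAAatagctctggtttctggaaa
*Bst2*, chr8:71537567-71537622, minus strand: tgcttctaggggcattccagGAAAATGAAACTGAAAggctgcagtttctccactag
*Stat2*, chr10:128270256-128270305, plus strand: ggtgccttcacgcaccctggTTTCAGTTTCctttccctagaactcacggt
*Ifit3*, chr19:34583353-34583436, plus strand: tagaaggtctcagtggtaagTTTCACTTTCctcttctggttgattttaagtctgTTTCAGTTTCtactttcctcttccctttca
*Ifit1*, chr19:34640765-34640833, plus strand: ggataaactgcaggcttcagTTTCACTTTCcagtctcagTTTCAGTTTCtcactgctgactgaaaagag

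The 3 matches of *Isg15* overlapped each other, the first starting 78 bases before the transcription start, and the 2 matches of *Bst2* overlapped as well. In *Ifit1* and *Ifit3*, both on chromosome 19, the same 2 core sequences stood apart, at 104 and 85 bases before the start of *Ifit1* and at 156 and 122 bases before that of *Ifit3*. The letters were not found in the windows of *Irf7*, *Irf9* and *Oasl2*, which says nothing of other windows of these genes. The core of the gamma-activated site, TTCNNNGAA, was found in *Bst2* alone of the 8 members, where it overlapped the first response element match by 3 bases. It was found in 9.55% of all genes with a window. A match of letters is a description and not a bound site.

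**Figure D1:**
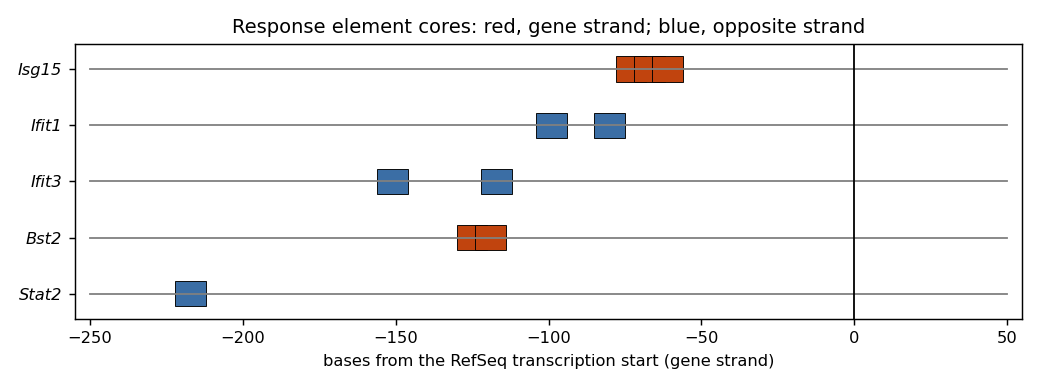
Positions of the response element core in the promoter windows of the 5 members that hold it, in bases from the RefSeq transcription start (x axis), 1 row per gene. Boxes mark the 10-base matches, red on the gene's strand and blue on the opposite strand, and those of *Isg15*, between 78 and 57 bases before the start, lie nearest to it.

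The members were expressed at low to moderate levels. Levels were compared as normalized read counts per kilobase of exons, as means over the 6 libraries. Exon length was the union of all annotated exons of a gene, which for *Irf7* (3776 bases) covered the whole gene span. The order of the members therefore depends in part on the annotation. *Stat2* was the highest member at 191 per kilobase (range 179 to 206), above the median of 121 over the genes tested. *Ifit3* (94.8), *Irf9* (87.1), *Isg15* (82.7) and *Bst2* (78.1) followed, and neighbours in this order overlapped in their ranges over the 6 libraries. *Ifit1* (21.9), *Oasl2* (18.1) and *Irf7* (16.7) formed a lower group, whose neighbours also overlapped. *Usp18* was the lowest at 11.7, and 11.5% of the genes tested had a lower level. The ranges of *Stat2* and *Ifit3*, of *Bst2* and *Ifit1*, and of *Irf7* and *Usp18* did not overlap.

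The comparison of TG with WT asked whether overexpressed *Shank3* changed these genes in the striatum. None of the 9 members passed the test in either direction. The differences were tested with limma on log2(normalized read count + 1) over the 17605 genes that averaged 10 or more normalized reads, which each of the 9 members did, and the *P* values were adjusted over all of them. Log2 fold changes are given ± their standard error, and the added 1 understates the changes of low counts. *Shank3* itself, which checks the labels, had 28081 ± 1934 normalized read counts in TG mice (SD, n = 3) and 13530.2 ± 531 in WT mice (SD, n = 3).

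**Figure D2:**
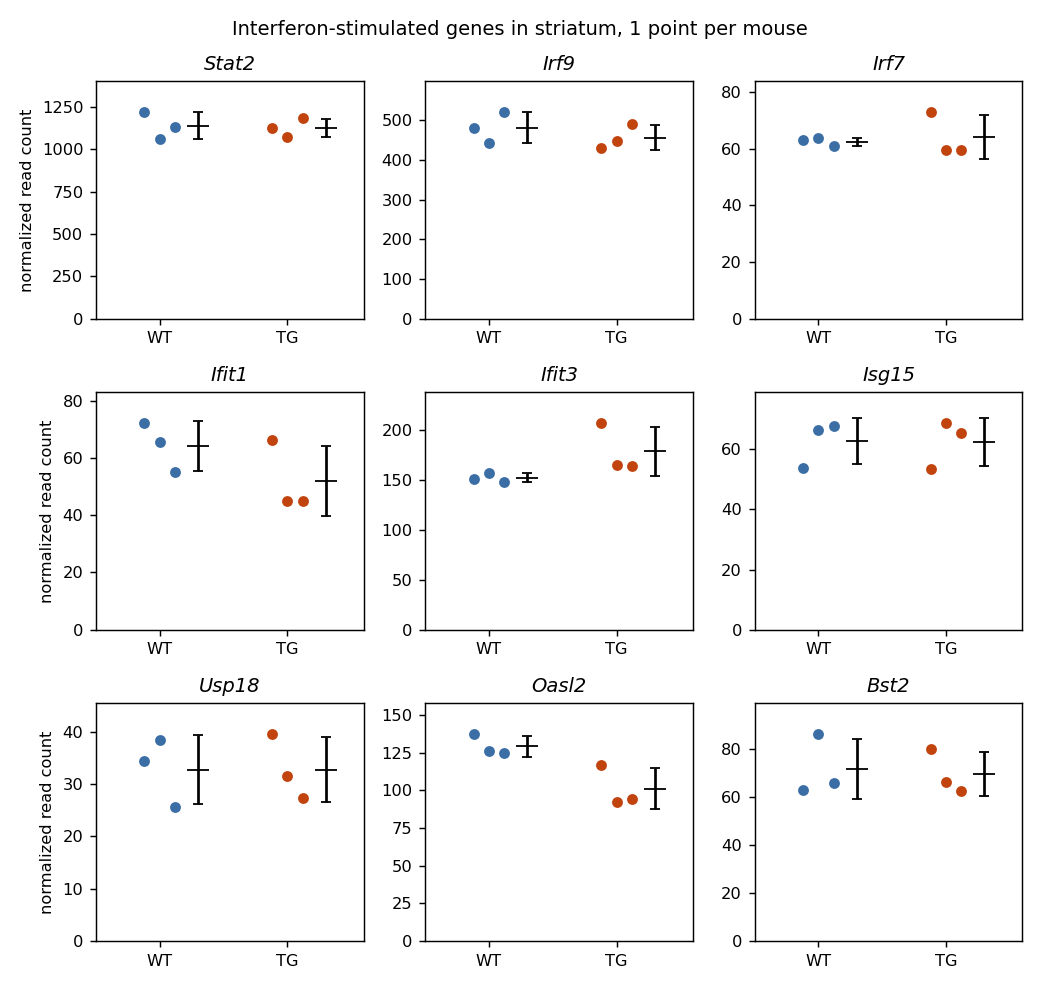
Normalized read counts (y axis, from 0) of the 9 members in each of the 3 WT (blue) and 3 TG (red) mice, 1 point per mouse, with the mean and SD of each group beside the points. The TG points lie below the WT points in *Oasl2* and above them in *Ifit3*, and the groups overlap in the other 7 genes.

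*Stat2* (ENSMUSG00000040033; chromosome 10, 128270559 to 128292849 in GRCm38) encodes the STAT protein particular to type I and type III interferon signalling. It had 1125, 1073 and 1183 normalized read counts in TG replicates 1, 2 and 3 and 1221, 1063 and 1135 in WT replicates 1, 2 and 3. The groups overlapped, with the highest and the lowest value both in WT mice. This gave a log2 fold change of -0.01 ± 0.07, with a 95% interval from -0.16 to 0.13. The interval is the narrowest of the 9.

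*Irf9* (ENSMUSG00000002325; chromosome 14, 55603571 to 55610030) encodes the DNA-binding subunit of ISGF3. Its values were 430, 447 and 492 in the TG replicates and 482, 443 and 521 in the WT replicates, again overlapping. The log2 fold change was -0.08 ± 0.08, with an interval from -0.27 to 0.11, and it lay between -0.14 without WT replicate 2 and -0.02 without WT replicate 3 when a library was left out. The annotated exons of *Irf9* share 123 of their 5386 bases with *Rnf31* on the same strand, and how reads there were counted is not given in the sources used here.

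*Irf7* (ENSMUSG00000025498; chromosome 7, 141262706 to 141266481) encodes the interferon-induced factor that amplifies the transcription of type I interferon genes. It had 72.9, 59.6 and 59.4 normalized read counts in the TG replicates, against 62.9, 63.6 and 60.9 in the WT replicates. TG replicate 1 was the highest of the 6 libraries and the other two TG mice were the lowest. TG differed from WT by a log2 fold change of 0.03 ± 0.15, with an interval from -0.31 to 0.37. Its exons share 45 bases with *Phrf1* on the opposite strand, and whether the counting used the strand is not given in the sources used here.

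*Ifit1* (ENSMUSG00000034459; chromosome 19, 34640871 to 34650009) encodes a protein that binds viral RNA lacking the host's cap methylation. Its values were 66.1, 44.96 and 44.8 in the TG mice, against 72.1, 65.5 and 54.98 in the WT mice. TG replicates 2 and 3 were the 2 lowest libraries, while TG replicate 1 lay within the WT range. For *Ifit1* the log2 fold change was -0.32 ± 0.20, with an interval from -0.75 to 0.12, and -0.50 without TG replicate 1 (adjusted *P* = 0.658).

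*Ifit3* (ENSMUSG00000074896; chromosome 19, 34583531 to 34588731) lay on the other side. It had 207, 165 and 164 normalized read counts in the TG mice, against 151, 157 and 148 in the WT mice, so that the groups did not overlap. For *Ifit3* the log2 fold change was 0.22 ± 0.12, with an interval from -0.04 to 0.49 (adjusted *P* = 0.971), and it was 0.11 without TG replicate 1, the highest library. *Ifit3b*, a nearly identical nearby gene named here because reads could be split between the pair, had 130, 87.7 and 101 in the TG mice, against 128, 87.0 and 86.4 in the WT mice. This pair of groups differed by a log2 fold change of 0.08 ± 0.19. The value of *Ifit3* is uncertain to the extent that such reads were left out or shared.

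*Isg15* (ENSMUSG00000035692; chromosome 4, 156199424 to 156200818) encodes a ubiquitin-like modifier that is conjugated to proteins after interferon. Its values were 53.2, 68.6 and 65.2 in the TG replicates and 53.8, 66.4 and 67.7 in the WT replicates. In each genotype the library numbered 1 was low and the other two were higher, and the group means of 62.3 and 62.6 nearly coincided. The log2 fold change was -0.01 ± 0.17, with an interval from -0.39 to 0.37.

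*Usp18* (ENSMUSG00000030107; chromosome 6, 121245906 to 121270917) encodes the protease that removes ISG15 from proteins and also dampens signalling at the interferon receptor. It had 39.5, 31.5 and 27.3 normalized read counts in the TG mice, against 34.3, 38.3 and 25.5 in the WT mice. The groups overlapped over nearly their whole range. TG and WT mice differed by a log2 fold change of 0.00 ± 0.23, with an interval from -0.51 to 0.51, the widest of the 9. Between 26 and 46 reads per library lay behind these values, and counting error alone gives an SD of 0.26 on the log2 scale, against 0.28 measured between mice of a genotype. The exons of *Usp18* share 124 bases with the lincRNA *Gm44148* on the opposite strand.

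*Oasl2* (ENSMUSG00000029561; chromosome 5, 114896936 to 114912234) encodes an oligoadenylate synthetase-like protein of the antiviral response. It had 117, 92.2 and 94.5 normalized read counts in the TG mice, against 137, 126 and 125 in the WT mice, lower in 3 of 3 TG mice than in any WT mouse. Its mean was 101 ± 13.5 in TG mice (SD, n = 3) and 129 ± 6.90 in WT mice (SD, n = 3). The log2 fold change was -0.36 ± 0.13, the largest in size among the members, with an interval from -0.65 to -0.07. The adjusted *P* value from limma was 0.971, and the smallest over the alternatives was 0.658. Without TG replicate 1 the log2 fold change was -0.47. The marker genes of microglia were lower in TG mice as well. All 15 of the 15 markers had a log2 fold change below 0 without any passing the test, and none was at 0 in any library. Their summed normalized read counts were between 15501 and 16647 in TG mice and between 16993 and 17520 in WT mice. Of the 11 endothelial cell markers, none at 0 in any library, 3 were higher and 8 lower. Their sums overlapped, from 11216 to 11896 in TG mice and from 10695 to 12390 in WT mice. Other marker lists also leaned to one side. Among the markers tested, 8 of 9 of striatal spiny neurons and 6 of 6 of meningeal fibroblasts were lower in TG mice. All 9 of choroid plexus and all 5 of erythroid cells were higher. The part of any of these cell types in the values of *Oasl2* was not tested.

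*Bst2* (ENSMUSG00000046718; chromosome 8, 71534255 to 71537456) encodes tetherin, which holds budding virus particles at the cell surface. Its values were 79.8, 66.3 and 62.3 in the TG replicates and 62.9, 86.0 and 65.8 in the WT replicates. The highest value was in WT replicate 2, and the lowest 2 values came from both genotypes. The log2 fold change was -0.04 ± 0.17, with an interval from -0.42 to 0.35.

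Over the 9 members, 3 were higher and 6 lower in TG mice, and the median log2 fold change was -0.01, against 0.00 over all genes tested. With the adjusted *P* value held under 0.05, 0 of the 9 members and 0.00568% of the genes tested were called by limma, the latter being *Shank3* alone. DESeq2 and edgeR on the recovered reads also called 0 members. An unadjusted *P* value under 0.05 was reached by 1 member, *Oasl2* (0.0211), by 0 members in DESeq2 and by 1 in edgeR, and by 4.31% of the genes tested in limma. TG and WT values were without overlap in 2 members, *Oasl2* and *Ifit3*, against 10.1% of the genes tested. A two-sided exact permutation test of these 2 members had *P* = 0.1, the smallest value that 3 mice against 3 allow, and for the others between 0.3 and 1. Without TG replicate 1 the groups did not overlap in 4 members, *Ifit1* and *Irf7* being added, against 25.6% of the genes tested.

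**Figure D3:**
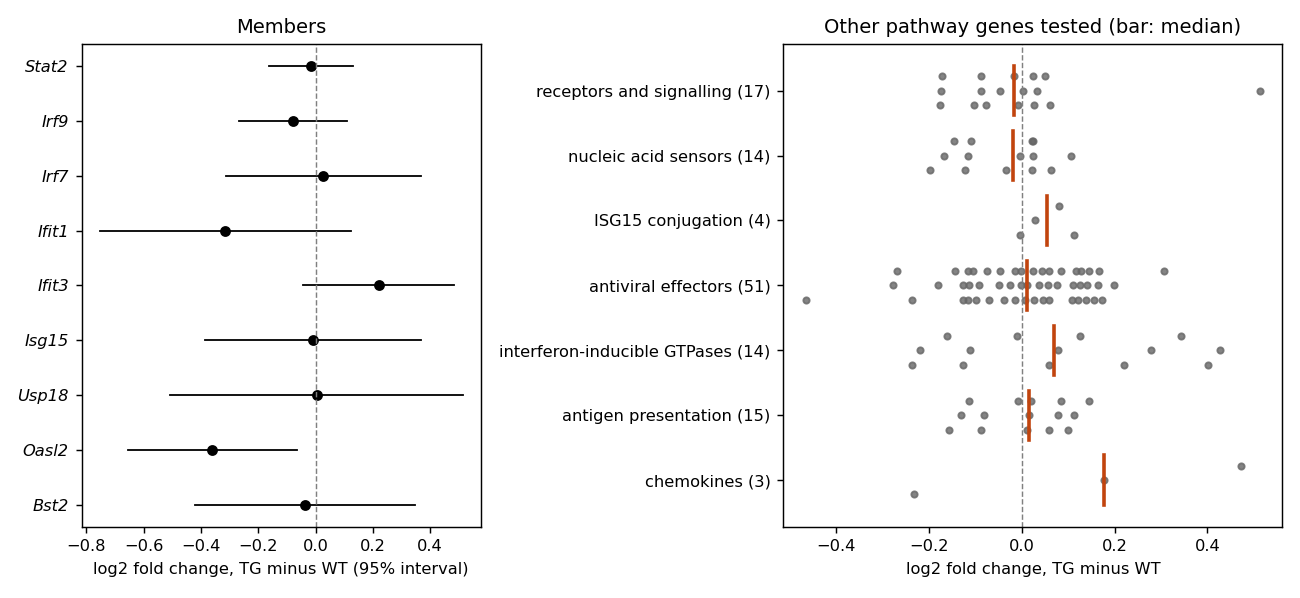
Left, log2 fold change between TG and WT mice (x axis) of each member with its 95% interval from limma. The interval of *Oasl2*, from -0.65 to -0.07, is the one that leaves out 0. Right, the log2 fold changes of the 118 other pathway genes tested, 1 point per gene in 7 lists with the number tested in parentheses and the median as a bar, which lies between -0.02 and 0.18.

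The precision of the members differed with their depth. Between 27689589 and 36647626 reads per library fell on genes, and the counting SD on the log2 scale was 0.04 for *Stat2* and between 0.17 and 0.26 for *Isg15*, *Irf7*, *Bst2*, *Ifit1* and *Usp18*. For *Isg15* the SD between mice of a genotype was 0.19, near its counting SD of 0.18. For *Oasl2* the SD between mice was 0.141, likewise near its counting SD of 0.136. That of *Irf7* was 0.120, below its counting SD of 0.183, and that of *Stat2* was 0.09, above its counting SD. A decrease of the size seen in *Oasl2* (-0.36) lay within the intervals of *Ifit1*, *Isg15*, *Usp18* and *Bst2*. That decrease lay below the intervals of *Stat2*, *Irf9*, *Irf7* and *Ifit3*. An increase of that size lay within the intervals of *Irf7*, *Ifit3*, *Isg15* and *Usp18* and above those of *Stat2*, *Irf9*, *Ifit1* and *Bst2*.

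The correlations among the members lay on both sides of 0. Over the 6 libraries, which share the normalization and include both genotypes, the Pearson *r* of the log2 values was above 0 in 19 of the 36 pairs of members, with a mean of 0.03, against 0.10 for the other pathway genes tested and 0.00 for all genes tested. *Ifit1* and *Oasl2* were the most alike (*r* = 0.91), both low in TG replicates 2 and 3. *Ifit3* and *Irf7* followed (*r* = 0.80), both highest in TG replicate 1. *Irf9* and *Usp18* were the most opposed (*r* = -0.87). The mean centred log2 value of the 9 members was 0.10 in TG replicate 1, -0.09 and -0.10 in TG replicates 2 and 3, and 0.04, 0.08 and -0.03 in the WT replicates. Among the 12828 other genes with a mean of at least 100, the 10 whose values followed this mean most closely included 2010204K13Rik, *Tab1*, *Gnai2*, *Nek8*, *Olig2*, *Prdm16*, *Mrpl12*, *Fgfbp3* and *Tgfb1* (*r* between 0.97 and 0.99 over 6 libraries). None of the 10 is among the 71 other pathway genes ranked, which make up 0.553% of the genes ranked. Over these 71 genes the median *r* with the mean of the members was 0.42, against -0.04 over all genes ranked. By list it went from 0.04 for receptors and signalling to 0.74 for the interferon-inducible GTPases. Between 1 and 4 of the 10 most alike stayed in the list when a library was left out.

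The other genes of the pathway were taken as 148 genes in 8 lists by role, of which 118 were tested. Limma called 0 of them in either direction, and 0 were called by DESeq2 or edgeR. There were 62 higher and 56 lower in TG mice, with a median log2 fold change of 0.01. An unadjusted limma *P* value under 0.05 was reached by 1 higher and 3 lower genes, 4 of 118, against 4.31% of all genes tested. Non-overlapping groups were seen in 6 of 118, a smaller share than the 10.1% over all genes tested, namely 3 higher genes (*Jak1*, *Cmpk2* and *Ifi47*) and 3 lower genes (*Irf3*, *Tlr3* and *Lgals9*).

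Ligands were hardly detected. Of the 19 interferon genes listed, 4 had any read in the 6 libraries and 0 could be tested. *Ifnk* had 2 reads in WT replicate 1 and 1 read in WT replicate 2, and *Ifne* had 2 reads in TG replicate 3. *Ifng* had 1 read in all, and *Ifna12* had 2, with 1 in each of TG replicate 1 and WT replicate 3. *Ifnb1* was among the 15 genes with no read. A count of 0 in a single library allows an expected count of up to 3 reads there, as a 95% upper limit. With 0 in each of the 6 libraries the limit on the expected count per library is smaller.

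Among the 17 genes of receptors and signalling, 7 were higher and 10 lower, with a median of -0.02. The kinases *Jak1*, with between 5427 and 5797 normalized read counts in TG mice and between 5187 and 5418 in WT mice, and *Jak2* were the most abundant. The log2 fold change was 0.06 ± 0.05 for *Jak1* and 0.05 ± 0.08 for *Jak2*. *Irf3*, the factor that starts interferon transcription after viral sensing, had 615, 565 and 565 in the TG mice, against 664, 639 and 666 in the WT mice, lower in each TG mouse than in any WT mouse. The difference was -0.17 ± 0.07 as a log2 fold change, with an adjusted *P* value of 0.971 from limma. *Socs1*, a feedback inhibitor of the receptor kinases, differed by 0.51 ± 0.34 on the log2 scale, and WT replicate 3 with 23.6 was above all TG mice, the highest of which had 23.4.

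Among the 14 nucleic acid sensors and their adaptors, 6 were higher and 8 lower. *Tlr3*, the endosomal receptor for double-stranded RNA, had 409, 399 and 388 normalized read counts in the TG mice, against 480, 436 and 430.0 in the WT mice, with no overlap and a log2 fold change of -0.17 ± 0.08. The kinase *Tbk1*, the most abundant of the list, had a log2 fold change of 0.00 ± 0.05. Of the 4 genes of ISG15 conjugation, 3 were higher and 1 lower, and *Herc6*, the main mouse ISG15 ligase, and *Trim25* had log2 fold changes of 0.08 and 0.00.

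Of the 56 antiviral effectors, 51 were tested, 27 higher and 24 lower. *Cmpk2*, a mitochondrial nucleotide kinase, had 787, 837 and 778 normalized read counts in the TG mice, against 748, 713 and 720 in the WT mice, with no overlap and a log2 fold change of 0.14 ± 0.06. *Lgals9*, which encodes galectin-9, had 171, 155 and 136 in the TG mice, against 188, 184 and 187 in the WT mice, which as a log2 fold change is -0.28 ± 0.11. *Sp100*, a component of nuclear bodies, and *Ddx60*, a helicase, had -0.27 ± 0.13 and -0.47 ± 0.23. *Trim30a* had 0.20 ± 0.14. The most abundant effectors, the RNA editing enzyme *Adar* and *Znfx1*, had 0.06 and 0.02. None of these genes passed the test, and each of the 7 named here had an adjusted *P* value of at least 0.971 by limma.

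The interferon-inducible GTPases, which attack the vacuoles of intracellular pathogens and answer mainly to interferon gamma, were 8 higher and 6 lower of 14 tested. *Irgm1* and *Gbp7*, the most abundant, had log2 fold changes of 0.13 ± 0.11 and -0.11 ± 0.12, and *Ifi47* had 0.40 ± 0.24. Of the 15 genes of antigen presentation, 9 were higher and 6 lower. *B2m*, the light chain of class I molecules, had 1883, 1583 and 1573 normalized read counts in the TG mice, against 1765, 1642 and 1644 in the WT mice, which as a log2 fold change is -0.01 ± 0.07, and *H2-D1* had 0.02 ± 0.11. *Psme1*, a proteasome activator subunit, had 0.14 ± 0.10. Of the 3 chemokines tested, *Ccl2* had 46.3, 18.0 and 5.84 in TG mice and between 8.42 and 20.6 in WT mice, and *Cxcl16* a log2 fold change of -0.23 ± 0.26.

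TG replicate 1 stood apart in some of these lists. It was the highest of the 6 libraries in 12 of the 14 GTPases and 8 of the 15 genes of antigen presentation. The same held for 17 of the 51 antiviral effectors and 3 of the 9 members, against 17.8% of the genes tested. It also held for 3 of the 4 genes of ISG15 conjugation and 2 of the 3 chemokines tested. Among receptors and signalling it held for 4 of 17 genes, and among nucleic acid sensors for 1 of 14. Over the other pathway genes tested it held for 47 of 118. Relative to the WT mean, the median GTPase differed by 0.38 in TG replicate 1 and by -0.10 and -0.13 in TG replicates 2 and 3 on the log2 scale. Without that library the median log2 fold change of the GTPases went from 0.07 to -0.14, that of the other pathway genes from 0.01 to -0.06, and that of the members from -0.01 to -0.07. Other libraries also moved the median of the members, which was -0.08 without WT replicate 1, 0.04 without WT replicate 2 and between -0.04 and -0.01 with each remaining library left out. The choroid plexus markers were high in the same library. Their summed normalized read counts were 15479 there, 1901 in TG replicate 2, 638 in TG replicate 3 and from 554 to 909 over the WT mice. Of these sums, *Ttr* alone made up 13701 in TG replicate 1, 1122 in TG replicate 2, 204 in TG replicate 3 and from 120 to 432 over the WT mice. Each of the 9 choroid plexus markers tested was highest in TG replicate 1. Reads were found in every library for 9 of the 10 markers, and *Kcnj13* was at 0 in some. The meningeal fibroblast markers summed to 1049 in TG replicate 1, against 656 and 625 in the other two TG mice and between 856 and 952 in WT mice, with none of the 6 at 0. The 5 erythroid markers, none of them at 0, were also each highest in TG replicate 1, with a sum of 3410 there, 2589 and 1868 in TG replicates 2 and 3 and from 1805 to 2286 over the WT mice. Blood leukocyte markers were at low counts, 3 of the 8 with reads in every library, and 0 of them could be tested. Their sums did not overlap between the genotypes (from 30.9 to 32.6 in TG mice, from 9.35 to 21.7 in WT mice). The most abundant, *S100a9*, had between 10 and 13 reads per library in TG mice and between 1 and 3 in WT mice. The mean was higher in TG mice for 7 of the 8 markers. The part of these tissues and cells in the interferon values was not tested. Markers of striatal spiny neurons were at 0 in no library and summed to between 121107 and 169974, lowest in TG replicate 1.

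**Figure D4:**
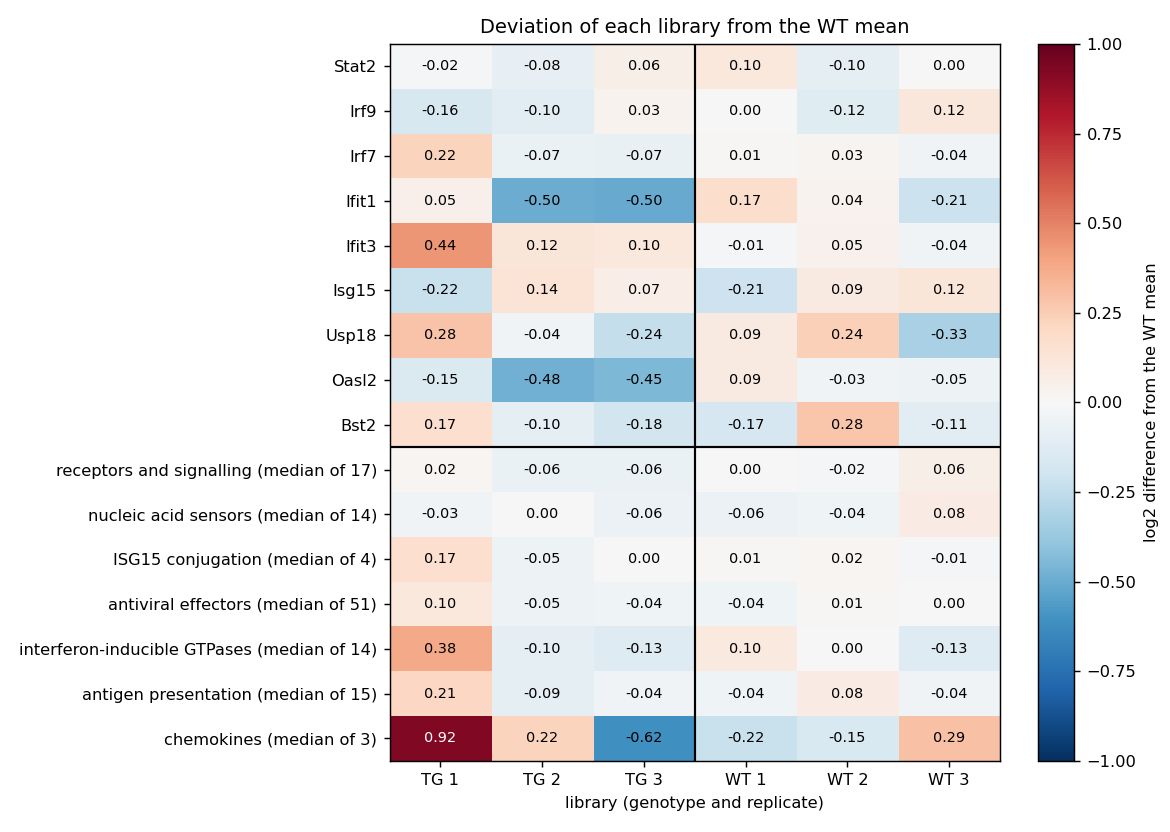
Difference of each library from the WT mean on the log2 scale, for each member and for the median gene of the 7 pathway lists tested (rows), with 1 column per library and red above and blue below the WT mean. The chemokines, with 3 genes tested, span the widest range, from 0.92 in TG replicate 1 to -0.62 in TG replicate 3. *Ifit1* and *Oasl2* are lowest in TG replicates 2 and 3 (between -0.50 and -0.45), and *Ifit3* (0.44), the GTPases (0.38) and the antigen presentation genes (0.21) are highest in TG replicate 1.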

How the data were processed

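RNA sequencing libraries (TruSeq RNA Sample Prep Kit v2, paired-end) from the striatum of 3 TG and 3 WT mice were used, grouped by the sample labels. The authors trimmed reads with Trimmomatic 0.35, mapped them to GRCm38 with TopHat2 2.1.0, counted them by gene with HTSeq and scaled them by DESeq2 size factors. The deposited values are this signal (normalized read counts). The strand setting and annotation release of the counting are not given in the sources used here. Reads were recovered as multiples of each library's smallest value above 0 (100% of values whole within 0.01). Identifiers were matched to GENCODE M21 (45229 of 46078), and exon lengths and positions taken from it. No library repeated another: squared differences were between 4.97 and 14.0 times the counting error.

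The main test was limma 3.58.1 with a mean-variance trend in R 4.3.3, with a pseudocount of 1, a minimum mean of 10 and Benjamini-Hochberg adjustment. Standard errors are those of this fit. Alternatives were DESeq2 1.42.0, edgeR 4.0.16 (quasi-likelihood) and limma-voom on recovered reads, TMM and library-total scaling, no filter, a minimum of 50, pseudocounts of 0.5 and 5, omission of each library, a block for the replicate number, and an adjusted *P* value of 0.1. Counting SDs and limits on 0 reads cover counting error only. The fits were tested on simulated data. The members and gene lists were chosen with earlier results of these data known. Genes named are the members, *Shank3*, the 5 higher and 5 lower pathway genes of smallest *P* value, the 2 most abundant of each list and the 10 most alike in pattern. *Ifit3b*, *Ifng*, *Ifna12*, *Ifnb1*, *Ttr* and *S100a9* were added after their values were seen. Some items are not reported here.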

Additional observations from a re-analysis of the deposited data

How the results depend on the processing

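The number of members called was 0 and of other pathway genes called 0 under all alternatives run, with a smallest adjusted *P* value of 0.658 among the members. Over all genes, 1 gene was called, against 7 by DESeq2, 5 without a filter, 4 at an adjusted *P* value of 0.1 and between 1 and 2 with a library left out. The number of members without overlap between groups was between 2 and 4 with a library left out, 4 without TG replicate 1. *Ifit1*, *Ifit3*, *Irf9* and *Oasl2* kept their direction in each setting run. The members near 0 did not. With a library left out the log2 fold change lay between -0.112 and 0.1004 for *Isg15*, turning positive without TG replicate 1, WT replicate 2 or WT replicate 3, between -0.0693 and 0.0766 for *Irf7*, negative without TG replicate 1, between -0.0638 and 0.0359 for *Stat2*, positive without TG replicate 2 or WT replicate 1, between -0.160 and 0.124 for *Usp18*, negative without TG replicate 1 or WT replicate 3, and between -0.139 and 0.101 for *Bst2*, positive without TG replicate 3 or WT replicate 2. The cause was not tested. The labels name no pairing of the mice by replicate number. Deviations of same-numbered mice had correlations of 0.05, 0.02 and 0.09, which cannot show whether the mice were paired. As a replicate block the numbers left 1 gene and 0 members called. Not every mouse correlated best with its own number, TG replicate 1 being closest to WT replicate 2 and TG replicate 3 to WT replicate 3. *Usp18* has no value at a minimum mean of 50.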
